A study of Mus musculus with 81 samples.

Results

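The NMDA receptor is assembled from the products of 7 genes, Grin1, Grin2a, Grin2b, Grin2c, Grin2d, Grin3a and Grin3b, and the members described here are these 7, taken by gene symbol from the 57010 genes quantified in the series. All 7 were present in the files. In the annotation of GRCm39, Grin1 (ENSMUSG00000026959) lay at chr2:25181186-25209226 on the minus strand, Grin2a (ENSMUSG00000059003) at chr16:9385762-9813424 (minus), Grin2b (ENSMUSG00000030209) at chr6:135690231-136150548 (minus) and Grin2c (ENSMUSG00000020734) at chr11:115139992-115158525 (minus). Grin2d (ENSMUSG00000002771) lay at chr7:45481304-45527802 (minus), Grin3a (ENSMUSG00000039579) at chr4:49661611-49845847 (minus) and Grin3b (ENSMUSG00000035745) at chr10:79806549-79813024 (plus).

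The series holds RNA-seq of 81 libraries from neurons cut out of Nissl-stained hippocampal sections by laser capture microdissection (LCM): pyramidal neurons (PNs) of CA1 and of CA3, and granule cells of the dentate gyrus (DG), each captured from the same mice. The mice were males of about 6 months, either trisomic Ts65Dn (Ts) or their disomic littermates (2N), on a mixed C57Bl/6J Eicher × C3H/HeSnJ background. Their dams received a diet with 1.1 g/kg choline chloride (ChN) or one supplemented to 5.0 g/kg (ChP) until weaning, after which every offspring ate the control diet. CA1 PNs gave 6 2N ChN, 5 Ts ChN, 7 2N ChP and 9 Ts ChP libraries, CA3 PNs gave 6, 6, 7 and 7, and DG gave 6, 6, 7 and 9 in the same order. Ts65Dn mice carry a freely segregating small chromosome with part of chromosome 16, orthologous to human chromosome 21, and also a segment of chromosome 17 that is not. Grin2a is on chromosome 16, outside the triplicated segment, so no member is present in an extra copy.

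NMDA receptors are glutamate-gated channels that let calcium into the neuron when glutamate binds while the membrane is depolarised, and they are the classic trigger of long-term synaptic plasticity in the hippocampus. Each receptor is a tetramer with the obligatory GluN1 subunit, encoded by Grin1, which binds the co-agonist glycine or D-serine. GluN2 subunits, encoded by Grin2a to Grin2d, bind glutamate and set the kinetics of the channel: GluN2B prevails in the young forebrain and GluN2A joins it with maturation, while GluN2C is best known from cerebellar granule cells and glia, and GluN2D from early development and interneurons. GluN3 subunits, encoded by Grin3a and Grin3b, bind glycine and lower the calcium permeability of the receptors that contain them.

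Each labelled population was checked against marker genes, in CPM, which are counts relative to the library total, here scaled with TMM to correct for library composition. The summed CPM of 6 DG markers ran from 1909 to 2579 in DG libraries and reached at most 28.3 in CA1 and 153 in CA3. The summed CPM of 5 CA3 markers was between 625 and 823 in CA3 libraries, at most 142 in DG and at most 598 in CA1. The libraries labelled CA1 were not uniform. In 17 of the 27, CA1 markers summed to between 1362 and 1998 CPM and 7 markers of CA2, the narrow field between CA1 and CA3, to between 71.0 and 142. In the other 10, CA2 markers summed to between 522 and 2101 CPM and CA1 markers to between 54.2 and 1078. These 10 were 2 of the 2N ChN, 1 of the Ts ChN, 3 of the 2N ChP and 4 of the Ts ChP libraries. Results of the members on CA1 whose calls or values turned on these libraries are also given without them. The labels of 1 CA3 library of the ChN diet are in conflict: by its title it is Ts, whereas mouse 15-145, from which it came, is 2N in CA1 and DG. It was counted as 2N. The mean log2(CPM + 1) of the triplicated genes was 8.905 in this library, 8.783 to 8.939 over the CA3 libraries counted as 2N ChN and 9.398 to 9.499 over the Ts ChN ones. One CA1 library labelled 2N (mouse 17-154, among the 10) had a mean log2 CPM of the triplicated genes of 9.1, within the range of the Ts libraries and above the other 2N CA1 libraries.

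The sequence before the start of Grin1 is shown because Grin1 is the subunit with the highest level and its levels in DG did not overlap those of the other populations. RefSeq's promoter table (GRCm38.p6) held 4 of the 7 members (Grin1, Grin2c, Grin2d and Grin3b), and 250 bases before each start were searched on both strands for the E-box CACGTG and the GC box GGGCGG. The Grin1 window was found by exact match on GRCm39 at chr2:25209200-25209449, minus strand. Its first 223 bases, those outside the gene as Gencode places it (chr2:25209227-25209449), are printed 5′ to 3′ with the motif matches in capitals.
Grin1: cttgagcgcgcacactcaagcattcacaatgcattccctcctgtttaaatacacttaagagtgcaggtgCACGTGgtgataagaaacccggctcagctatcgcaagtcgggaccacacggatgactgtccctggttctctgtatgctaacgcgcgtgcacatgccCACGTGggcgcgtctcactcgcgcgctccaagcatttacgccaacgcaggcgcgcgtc
The 250 bases of Grin1 held 2 E-boxes, no GC box and 27 CpG dinucleotides, with 58.8% GC. The window of Grin2c (chr11:115158070-115158319, minus strand, inside the first exon of Gencode) held 3 GC boxes, no E-box and 15 CpG, with 68.8% GC. Neither motif was present in the windows of Grin2d (54.4% GC) and Grin3b (46.0% GC). Of 32851 windows of the same length, 32.7% held a GC box and 6.02% an E-box, with medians of 52.4% GC and 6 CpG. Matches of the GC box may overlap each other, and a match describes letters and not a bound site.

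Grin1, Grin2b and Grin2a carried nearly all of the NMDA receptor transcripts in each population. Levels of different genes are compared in TPM, a share of all transcripts of the library after division by transcript length. Over the 81 libraries Grin1 had a median of 244 TPM (72.1 to 476), Grin2b 164 TPM (41.6 to 356) and Grin2a 110 TPM (29.4 to 200). Grin3a followed with a median of 1.86 TPM (0.33 to 9.98), Grin2d with 0.87 TPM and Grin2c with 0.79 TPM. Grin3b had 5 counts in 4 of the 81 libraries and was listed at 0 in the other 77. A count of 3 over all libraries is 0.0296 CPM, so Grin3b was near the limit of detection and it entered no test.

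**Figure D1:**
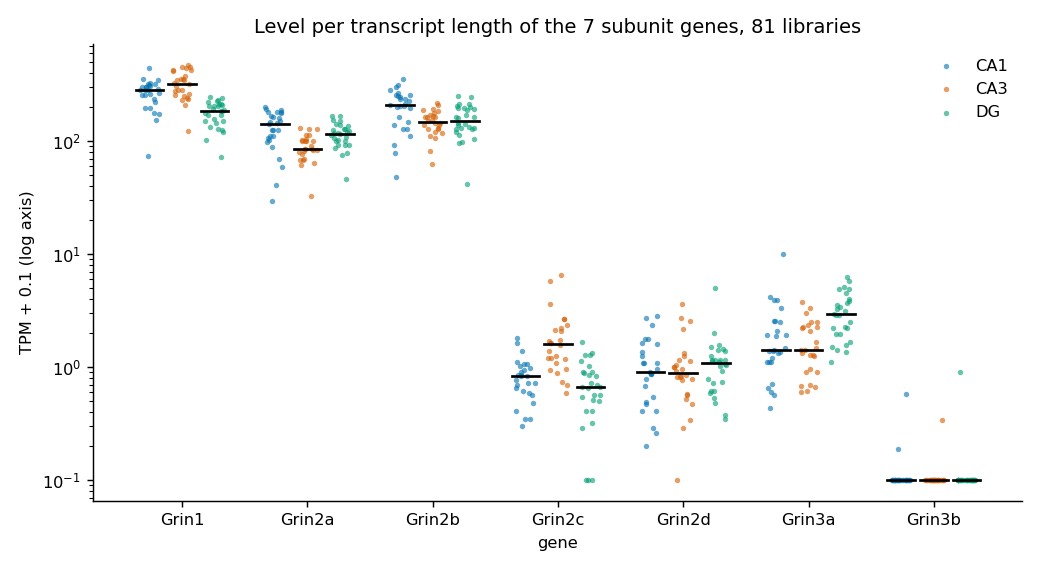
TPM plus 0.1 on a log axis of the 7 subunit genes in the 81 libraries, coloured by population, with a bar at the median of each population. Grin1, Grin2a and Grin2b lie between about 29.4 and 476 TPM, while the other 4 genes stay below 9.98 TPM.

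The order of the abundant members held within single libraries. Grin1 exceeded Grin2a in TPM in 81 of 81 libraries and Grin2b exceeded Grin2a in 77 of 81. Grin1 exceeded Grin2b in 70 of 81 libraries, in all 26 of CA3, in 23 of 27 of CA1 and in 21 of 28 of DG. The ranges of Grin1 and Grin2b overlapped in each population. The low members Grin2c, Grin2d and Grin3a overlapped one another, with median counts of 4, 5 and 15 per library, so their single values carry large counting error. Grin1 shared 11.8% of its exon bases with the antisense gene Grin1os (median 1.64 CPM), and Grin2d shared 8.18% of its exon bases with Gm45441 on the opposite strand (median 1.31 CPM). The largest overlap was that of Grin3b, which shared 32.1% of its exon bases with Tmem259 on the opposite strand (median 55.7 CPM). Grin3b itself had 5 counts over the 81 libraries. The strand setting of the counting is not given in the sources used here, so reads of those overlaps cannot be told apart.

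Populations were compared within mice, with edgeR's quasi-likelihood test, the mouse as a block and an adjusted p under 0.05 as the threshold. CA1 PNs had the highest Grin2a and Grin2b, DG granule cells had the least Grin1, Grin2c was highest in CA3 PNs of 2N mice (no contrast of it passed in Ts mice), and Grin3a was lower in CA3 PNs than in DG in 3 of the 4 genotype and diet groups. In 2N ChN mice (6 per population), 9 of the 18 member and population pairs differed, 3 in each contrast, where 23.1% (CA1 against CA3), 33.9% (CA1 against DG) and 43.3% (CA3 against DG) of all genes did. The same count was 9 of 18 in 2N ChP mice (24.6%, 33% and 42% of all genes), 9 of 18 in Ts ChP mice (25.5%, 39.3% and 43.4%) and 7 of 18 in Ts ChN mice (25.7%, 34.6% and 45.2%). LCM does not fix the number of transcripts per cell, so in each contrast fewer cells of a type and less RNA per cell cannot be told apart.

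**Figure D2:**
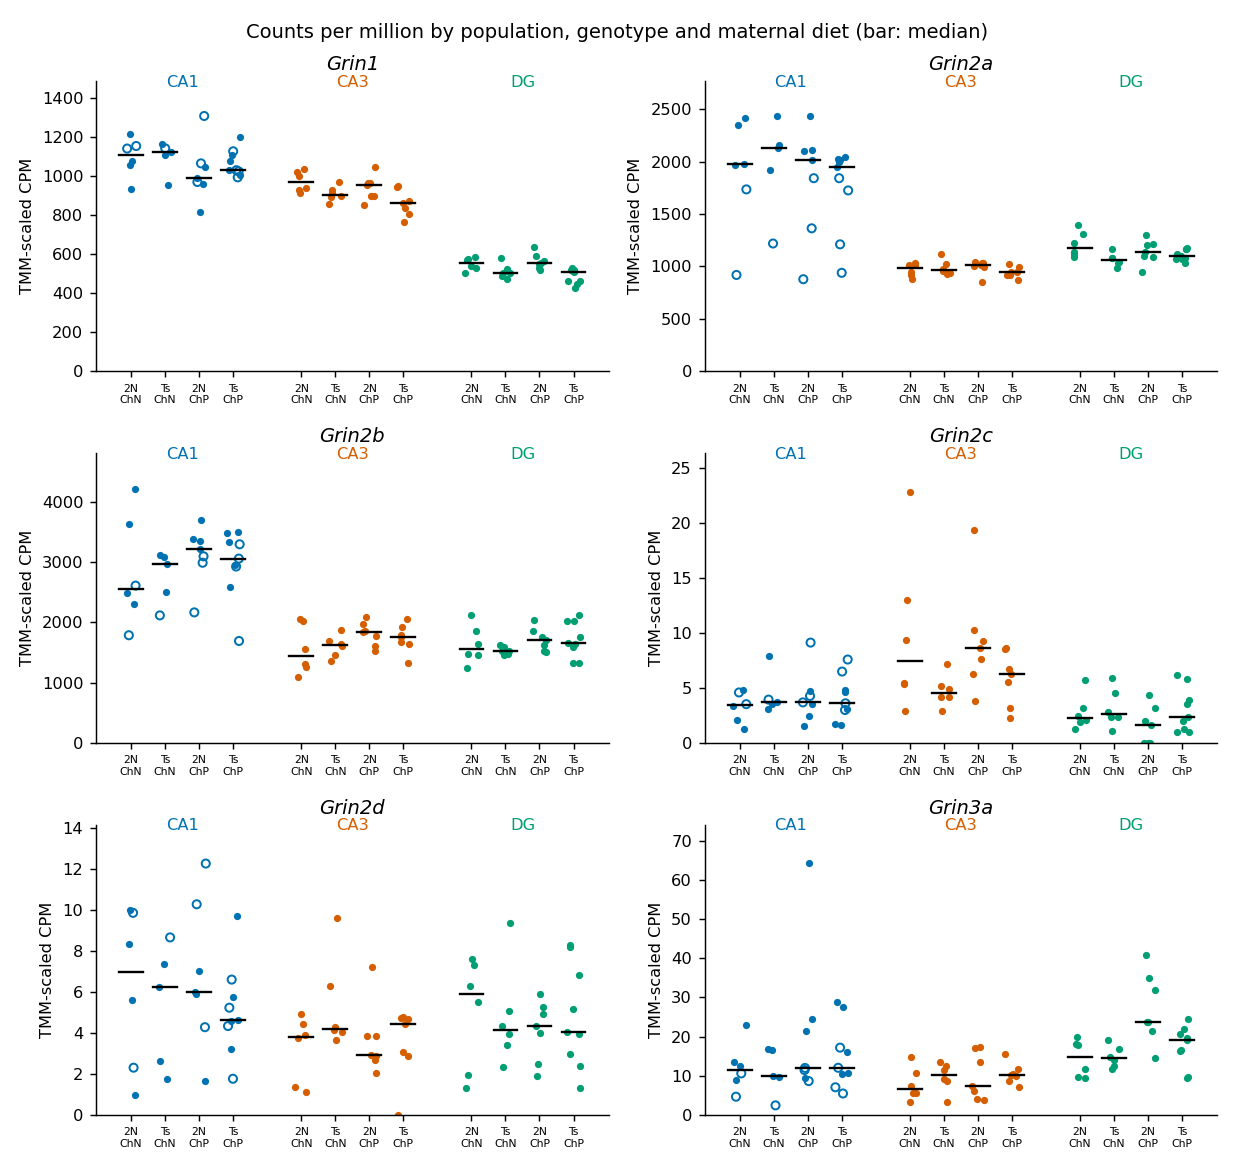
TMM-scaled CPM of the 6 tested members in each library, by population, genotype (2N, Ts) and maternal diet (ChN, ChP), with a bar at the group median. Open circles are the 10 CA1 libraries with CA2 markers, and they hold the lowest Grin2a values of CA1, from 877 to 1842 CPM.

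Grin1, the subunit that no NMDA receptor lacks, separated DG from both pyramidal populations. In CPM its lowest, median and highest values were 814, 1065 and 1308 in CA1, 766, 920 and 1044 in CA3, and 427, 521 and 635 in DG. The DG libraries did not overlap the other 2 populations, and within mice CA1 exceeded DG in 27 of 27 and CA3 exceeded DG in 26 of 26. The share of all genes separated in this way was not counted. In 2N ChN mice the log2 fold change (LFC) was 0.97 ± 0.088 (SE, adjusted p = 1.4e-11) for CA1 over DG and 0.80 ± 0.088 (adjusted p = 1.09e-09) for CA3 over DG. The 3 other genotype and diet groups gave LFC of 1.08 (Ts ChN), 0.81 (2N ChP) and 1.11 (Ts ChP) for CA1 over DG, and of 0.81, 0.71 and 0.81 for CA3 over DG. CA1 was above CA3 in 22 of 25 mice. The LFC of CA1 over CA3 passed the threshold in Ts ChN (0.27, adjusted p = 0.00186) and Ts ChP (0.30, adjusted p = 5.59e-04) and not in 2N ChN (0.17, adjusted p = 0.165) or 2N ChP mice (0.10, adjusted p = 0.415). Without the CA1 libraries with CA2 markers, CA1 over CA3 was 0.13 in 2N ChN (adjusted p = 0.242), 0.28 in Ts ChN, 0.05 in 2N ChP and 0.29 in Ts ChP mice, and CA1 over DG was 0.95, 1.09, 0.76 and 1.09, with the same calls. Whether the LFC differed by genotype was tested directly, as reported further on.

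Grin2a, which encodes the GluN2 subunit that rises with maturation, was highest in CA1. Its lowest, median and highest CPM were 877, 1982 and 2439 in CA1, 850, 985 and 1115 in CA3, and 942, 1109 and 1393 in DG. CA1 exceeded CA3 in 24 of 25 mice and DG in 24 of 27. The 2N ChN mice had an LFC of 0.93 ± 0.15 for CA1 over CA3 (adjusted p = 2.48e-04) and 0.58 ± 0.15 for CA1 over DG (adjusted p = 0.00657). The CA1 libraries spread further than those of the other populations, and the libraries with and without CA2 markers were apart in Grin2a. The 10 libraries with CA2 markers had 877 to 1842 CPM of Grin2a (median 1291) and the 17 others 1917 to 2439 CPM (median 2045), with no overlap. How many of all genes were apart between these sets was not counted. The 3 of these 10 with the least CA1 marker RNA had 938, 877 and 918 CPM, inside the range of CA3 PNs. Other markers were split along with CA2 markers. The summed inhibitory markers were 263.6 to 457.8 CPM in the 10 libraries and 149.6 to 237.5 in the 17 others, with no overlap. Oligodendrocyte markers were 141.4 to 267.5 CPM in the 10 and 89.35 to 172.6 in the others, and astrocyte markers 117.9 to 172.2 and 112.5 to 170.8. The choroid plexus list gave 4.58 to 65.5 and 43.8 to 94.6 CPM. All of that came from Kl, as Ttr and Folr1, the rest of the list, were at 0 in every CA1 library. The part of each of these, CA2 markers included, in the Grin2a values was not tested.

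**Figure D3:**
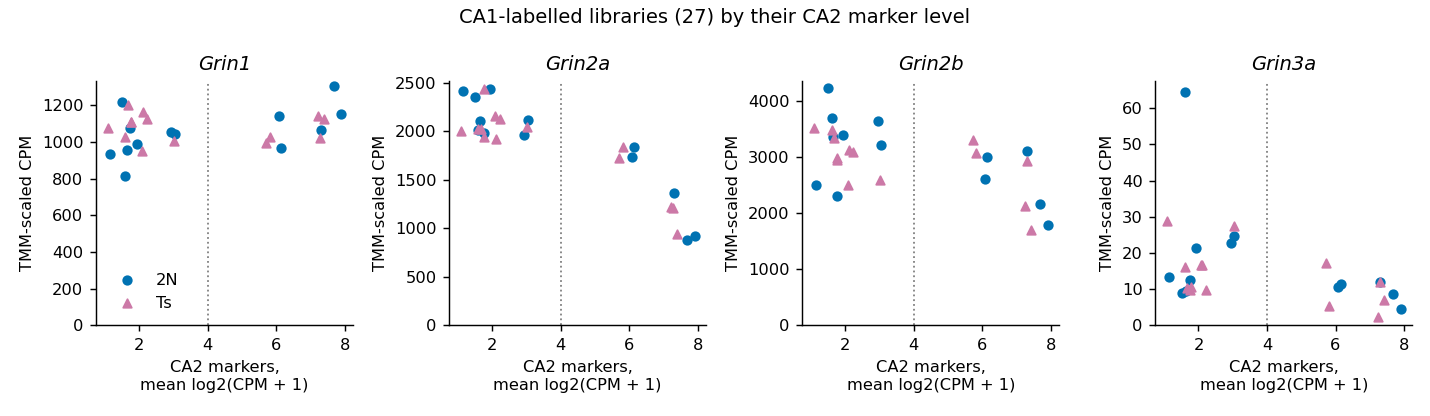
TMM-scaled CPM of Grin1, Grin2a, Grin2b and Grin3a in the 27 CA1-labelled libraries against the mean log2(CPM + 1) of 7 CA2 markers, by genotype, with a dotted line at a mean of 4. Grin2a lies at 1917 CPM or above to the left of the line and at 1842 CPM or below to its right, while Grin1 has overlapping ranges on both sides.

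Without the 10 libraries, an alternative chosen after seeing the data, Grin2a was higher in CA1 than in CA3 in 17 of 17 mice and than in DG in 17 of 17. The LFC of CA1 over CA3 was then 1.15 in 2N ChN, 1.11 in Ts ChN, 1.07 in 2N ChP and 1.06 in Ts ChP mice, against 0.93, 0.97, 0.82 and 0.89 with all libraries. The LFC of CA1 over DG was 0.82, 0.97, 0.85 and 0.84, against 0.58, 0.84, 0.59 and 0.61. Between CA3 and DG, where no library was left out, Grin2a was higher in DG in 25 of 26 mice, and the adjusted p moved with the libraries that shared the fit. With all libraries it passed in Ts ChP mice alone (LFC -0.29, adjusted p = 0.0469). Without the 10 it passed in each group, with LFC of -0.33 (adjusted p = 3.77e-06), -0.13 (0.0159), -0.23 (7.04e-04) and -0.22 (1.9e-04) in the order above.

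Grin2b, the GluN2 subunit of the young forebrain, was the most counted member and was again highest in CA1. Its lowest, median and highest CPM were 1693, 3062 and 4226 in CA1, 1102, 1688 and 2099 in CA3, and 1246, 1633 and 2122 in DG. CA1 exceeded CA3 in 25 of 25 mice and DG in 27 of 27, whereas CA3 exceeded DG in 16 of 26. Among 2N ChN mice the LFC was 0.86 ± 0.095 over CA3 (adjusted p = 3.21e-09) and 0.73 ± 0.095 over DG (adjusted p = 6.39e-08). Over the 3 other groups it was 0.77 to 0.81 over CA3 and 0.76 to 0.84 over DG. The CA3 and DG ranges coincided, and the LFC between them was -0.13 in 2N ChN mice (adjusted p = 0.282) and between -0.03 and 0.04 in the 3 other groups. CA1 libraries with CA2 markers had 1693 to 3300 CPM of Grin2b (median 2772) and the others 2311 to 4226 (median 3221), so here the 2 sets overlapped. Without the former the LFC was 1.01 in 2N ChN, 0.88 in Ts ChN, 0.86 in 2N ChP and 0.90 in Ts ChP mice over CA3 and 0.90, 0.92, 0.90 and 0.90 over DG, again past the threshold in each.

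Grin2c, a subunit better known from glia and cerebellum, had the largest LFC between populations among the members in 2N mice of both diets, and not in Ts mice. Its lowest, median and highest CPM were 1.25, 3.60 and 9.12 in CA1, 2.22, 6.29 and 22.9 in CA3, and 0, 2.34 and 6.16 in DG. CA3 exceeded CA1 in 22 of 25 mice and DG in 23 of 26, although the ranges overlapped. In 2N ChN mice the LFC was -1.42 ± 0.44 for CA1 over CA3 (adjusted p = 0.0145) and 1.70 ± 0.44 for CA3 over DG (adjusted p = 0.00172). In 2N ChP mice it was -1.14 (adjusted p = 0.0377) and 2.27 (adjusted p = 1.36e-04). In Ts mice no contrast passed: CA3 over DG gave 0.55 in Ts ChN (adjusted p = 0.339) and 0.87 in Ts ChP (adjusted p = 0.0812), and CA1 over CA3 gave -0.15 and -0.56. The call for CA1 against CA3 in 2N ChN mice was lost without mouse 17-154 (adjusted p = 0.0731) or mouse 17-56 (adjusted p = 0.124), and that in 2N ChP mice without the libraries with CA2 markers (-1.22, adjusted p = 0.0984).

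Oligodendrocyte and astrocyte markers were also higher in CA3 libraries at the median. The summed CPM of 5 oligodendrocyte markers ran from 191 to 398 in CA3 (median 257), from 89.4 to 268 in CA1 (median 141) and from 93.4 to 220 in DG (median 167). For 5 astrocyte markers the medians were 185 in CA3, 143 in CA1 and 161 in DG. Microglia markers were highest in DG, with medians of 25.6 there, 19.2 in CA3 and 18.4 in CA1. Precursor markers were highest in CA1, with medians of 21.1 there, 12.8 in CA3 and 12.2 in DG. The part of these markers in the Grin2c difference was not tested.

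Grin2d, the subunit of early development and interneurons, had no contrast between populations past the threshold in any group. Its lowest, median and highest CPM were 0.959, 5.77 and 12.3 in CA1, 0, 3.86 and 9.61 in CA3, and 1.29, 4.32 and 9.38 in DG. CA1 exceeded CA3 in 17 of 25 mice and DG in 15 of 27. In 2N ChN mice the LFC was 0.92 for CA1 over CA3 (adjusted p = 0.168), 0.19 for CA1 over DG and -0.73 for CA3 over DG (adjusted p = 0.221), with SE of 0.47 to 0.48.

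Grin3a, the glycine-binding subunit that lowers calcium permeability, was higher in DG than in CA3 in 3 of the 4 groups. Its lowest, median and highest CPM were 2.36, 12 and 64.4 in CA1, 3.13, 9.5 and 17.3 in CA3, and 9.48, 18 and 41.0 in DG. DG exceeded CA3 in 24 of 26 mice with partly overlapping ranges. The LFC of CA3 over DG was -0.86 ± 0.32 in 2N ChN mice (adjusted p = 0.0295), -1.59 in 2N ChP (adjusted p = 0.0102), -0.80 in Ts ChP (adjusted p = 0.00466) and -0.70 in Ts ChN mice (adjusted p = 0.0631). The call in 2N ChN mice was lost without mouse 15-145 (adjusted p = 0.066), 17-154 (0.0828) or 17-172 (0.155).

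CA1 libraries with CA2 markers had 2.36 to 17.2 CPM of Grin3a (median 9.57) and the others 8.92 to 64.4 (median 16.0). Inhibitory and oligodendrocyte markers were higher in the 10, as given with Grin2a, and their part was not tested. Without them Grin3a in CA1 was above CA3 in 17 of 17 mice, against 20 of 25 with all libraries. The LFC of CA1 over CA3 then passed the threshold in 2N ChN (0.96, adjusted p = 0.0264), 2N ChP (1.83, adjusted p = 9.09e-07) and Ts ChP mice (0.78, adjusted p = 0.0105), where with all libraries it passed in none (0.63, 1.08 and 0.48). The 2N ChP fit then held 4 CA1 libraries, 1 of them of mouse 15-296 at 64.4 CPM. The other CA1 libraries of 2N ChP mice had 8.58 to 24.6 CPM, and the fit was not repeated without that mouse. In Ts ChN mice the LFC of CA1 over CA3 was 0.50 (adjusted p = 0.223), and there Grin3a was lower in CA3 than in DG by an LFC of -0.66 that passed (adjusted p = 0.0246).

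**Figure D4:**
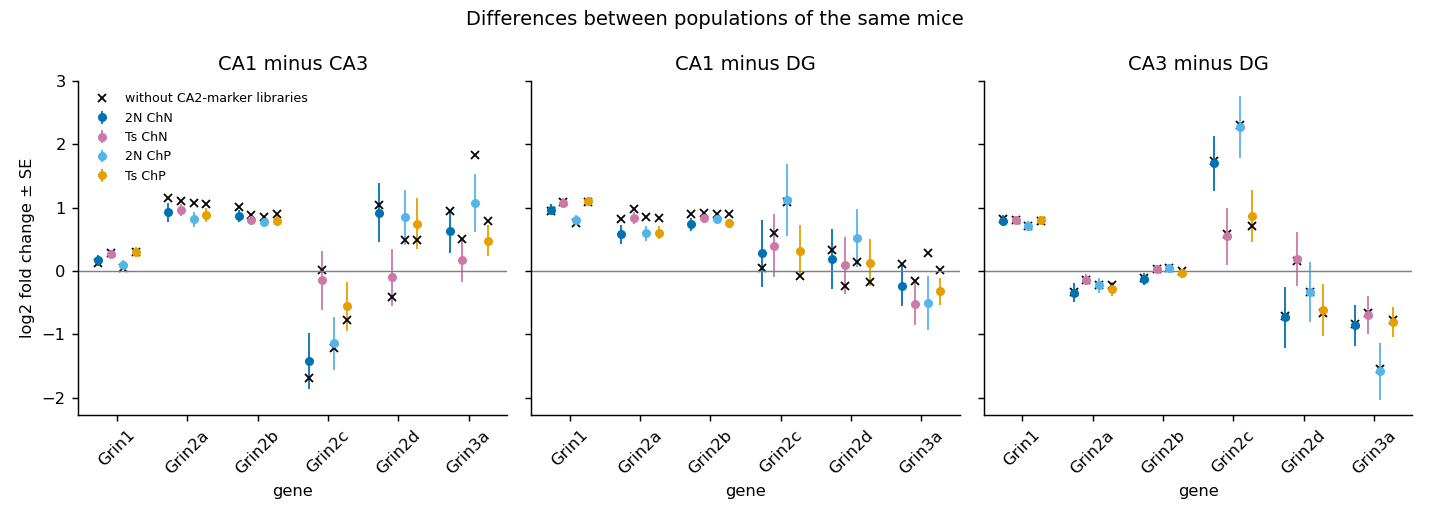
Log2 fold change with its SE of the 6 tested members between populations of the same mice, for the 4 genotype and diet groups, with crosses for the fits without the CA1 libraries with CA2 markers. Grin1 is near 0.8 in CA3 minus DG in each group, and Grin2a in CA1 minus CA3 lies between 0.82 and 0.97 at the points and between 1.06 and 1.15 at the crosses.

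Because GluN2 subunits assemble with GluN1, their summed TPM was set against that of Grin1 in each library. The ratio was below 1 in all 26 CA3 libraries (0.562 to 0.953, median 0.776) and above 1 in all 28 DG libraries (1.12 to 2.16, median 1.57). In CA1 it ran from 0.68 to 1.83 (median 1.23) and was above 1 in 23 of 27 libraries. All 17 CA1 libraries without CA2 markers were above 1 (1.12 to 1.83), and of the 10 with CA2 markers 6 were (0.68 to 1.32). CA3 and DG thus did not overlap. The log2 ratio in 2N ChN mice was -0.547 ± 0.208 in CA3, 0.635 ± 0.157 in DG and 0.363 ± 0.268 in CA1 (SD, n = 6 each).

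The difference between CA3 and DG had the same sign in every mouse of each group. It was -1.18 in 2N ChN mice and -1.02 in Ts ChN mice (exact sign-flip permutation test, two-sided, p = 0.0312 in both, the smallest that 6 mice allow). It was -0.93 in 2N ChP and -1.05 in Ts ChP mice (exact permutation p = 0.0156 in both, the smallest that 7 mice allow). CA1 exceeded CA3 by 0.91 in 6 of 6 2N ChN mice (exact permutation p = 0.0312) and by 0.65 in 7 of 7 Ts ChP mice (exact permutation p = 0.0156). Of the 24 tests of this ratio 8 had p under 0.05, all between populations, and over the 48 tests of both ratios the adjusted p of each of the 8 was 0.167. The contrast of CA1 and CA3 in 2N ChN mice was lost in 4 of 5 alternatives. With expected counts, which kept all 6 mice, it was 0.71 (exact permutation p = 0.0625). With the CA3 library of mouse 15-145 as Ts it was 0.92 (exact permutation p = 0.0625, the smallest that 5 mice allow). Without the CA1 libraries of mice 17-21 and 17-154, in this group the ones with CA2 markers, it was 0.99 (exact permutation p = 0.125, the smallest that 4 mice allow). With 5 or 4 mice the threshold could not be reached at any difference. The contrast of CA3 and DG in 2N ChN mice was -1.22 with the library of mouse 15-145 as Ts. Its exact permutation p of 0.0625 was the smallest that 5 mice allow, so this alternative could not keep the call. Without the libraries with CA2 markers the contrast of CA1 and CA3 was 0.99 in 2N ChP mice (exact permutation p = 0.125, the smallest that 4 mice allow). In Ts ChP mice it was 0.77 (exact permutation p = 0.0625, the smallest that 5 mice allow). Neither could reach the threshold. That of CA1 and DG in Ts ChP mice was -0.29, against -0.52 with all libraries (exact permutation p = 0.125, again over 5 mice). No genotype or diet difference of the ratio reached the threshold (exact permutation p from 0.148 to 0.936). The ratio of Grin2b to Grin2a in TPM had medians of 1.43 in CA1, 1.70 in CA3 and 1.36 in DG with overlapping ranges, and 1 of its 24 tests had p under 0.05 (CA3 over DG in Ts ChP mice, 0.35 on the log2 scale, higher in 6 of 7 mice, exact permutation p = 0.0312).

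The comparison of Ts with 2N asks whether trisomy alters these subunits in neurons at the age when basal forebrain cholinergic neurons begin to degenerate. It was made with edgeR's quasi-likelihood test in each population, with the study's threshold of an unadjusted p under 0.05. On the ChN diet 2 of the 18 member and population pairs passed, Grin2a in DG and Grin2c in CA3, both lower in Ts. At this threshold 3.77% of all genes tested passed in CA1, 9.2% in CA3 and 8.5% in DG. Without the CA1 libraries with CA2 markers the share in CA1 was 7.38%, and the count of pairs stayed 2. On the ChP diet 2 of 18 passed, Grin1 and Grin3a in DG, both lower in Ts, where 3.6% (CA1), 4.99% (CA3) and 7.6% (DG) of all genes passed. No member had an adjusted p under 0.05 in either diet, a threshold passed by 0.00814%, 0.662% and 0.588% of all genes on ChN and by 0.049%, 0.249% and 0.445% on ChP in the same order, and the pairs that passed on one diet did not pass on the other.

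Grin2a in DG of ChN mice had a lowest, median and highest CPM of 1093, 1179 and 1393 in 2N and of 989, 1059 and 1167 in Ts (n = 6 each). The Ts values lay lower, with overlap. The LFC was -0.19 ± 0.059 (unadjusted p = 0.00156, adjusted p = 0.153 by edgeR). It kept its call in 6 of 6 alternatives and without any one of the 12 mice. In ChP mice the LFC was -0.06 (unadjusted p = 0.33 by edgeR).

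Grin2c in CA3 of ChN mice had a lowest, median and highest CPM of 2.93, 7.42 and 22.9 in 2N and of 2.93, 4.53 and 7.16 in Ts (n = 6 each). The 2N libraries reached higher, and the groups overlapped. The LFC was -0.86 ± 0.38 (unadjusted p = 0.0285, adjusted p = 0.459 by edgeR). The call was lost without mouse 17-154, 17-56, 17-173 or 17-192 (edgeR's unadjusted p from 0.0518 to 0.109). It was also lost with limma-voom (-0.53, unadjusted p = 0.182). Summed inhibitory markers in CA3 were also lower in Ts, at 150 to 419 CPM in 2N (median 287) and 135 to 180 in Ts (median 162). Astrocyte markers were 150.8 to 248.7 CPM in 2N (median 212.1) and 132.2 to 195.4 in Ts (median 184.8). Oligodendrocyte markers had medians of 258.5 CPM in 2N and 266.3 in Ts. The part of these markers in the difference was not tested. In ChP mice the LFC was -0.58 (unadjusted p = 0.0759 by edgeR).

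In DG of ChP mice, Grin1 had a lowest, median and highest CPM of 516, 553 and 635 in 2N (n = 7) and of 427, 510 and 529 in Ts (n = 9). The groups overlapped only between 516 and 529 CPM. The LFC was -0.22 ± 0.065 (unadjusted p = 9.81e-04, adjusted p = 0.114 by edgeR). On the ChN diet the LFC in DG was -0.11 (unadjusted p = 0.098 by edgeR). In CA3 it was -0.10 on ChN (unadjusted p = 0.0721 by edgeR) and -0.12 on ChP (unadjusted p = 0.0686 by edgeR). In CA1 it was -0.02 and 0.06. Without the libraries with CA2 markers the ChP contrast in CA1 passed in the other direction, with an LFC of 0.17 ± 0.077 (unadjusted p = 0.0343, adjusted p = 0.663 by edgeR), where 7.01% of all genes passed.

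Grin3a in DG of ChP mice had a lowest, median and highest CPM of 14.4, 23.7 and 41.0 in 2N and of 9.48, 19.2 and 24.6 in Ts. The Ts libraries lay lower, with wide overlap. The LFC was -0.58 ± 0.21 (unadjusted p = 0.00606, adjusted p = 0.294 by edgeR). This call and that of Grin1 were kept in 6 of 6 alternatives and without any one of the 16 mice. Summed inhibitory markers in these libraries were 234 to 335 CPM in Ts (median 285) and 175 to 260 in 2N (median 222), higher in the group in which Grin1 and Grin3a were lower. Gad1 held the largest part of this sum in DG, with a median of 181 CPM over all DG libraries. The 8 markers summed had a median of 238 CPM there, and Sst and Vip had medians of 0. Glial markers in DG of ChP mice were also higher at the median in Ts: astrocyte markers were 130 to 221 CPM (median 182) against 120 to 176 (147), oligodendrocyte markers 139 to 220 (174) against 93.4 to 188 (160), and microglia markers 19.7 to 40.0 (28.4) against 12.9 to 25.4 (21.3). The part of these markers in the Grin1 and Grin3a differences was not tested.

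The maternal diet was the question named in the design of the series. In 2N mice 1 of 18 pairs passed the unadjusted threshold, Grin3a in DG, where 2.24% (CA1), 4.08% (CA3) and 5.52% (DG) of all genes passed. Its lowest, median and highest CPM were 9.48, 14.8 and 20.0 in ChN (n = 6) and 14.4, 23.7 and 41.0 in ChP (n = 7). The ChP libraries lay higher, with overlap between 14.4 and 20.0 CPM. The LFC was 0.91 ± 0.24 (unadjusted p = 3.18e-04, adjusted p = 0.749 by edgeR) and it passed in 6 of 6 alternatives, none of which left out a mouse. In Ts mice none of the 18 pairs passed with edgeR, at an unadjusted or an adjusted p under 0.05, against 3.26%, 4.9% and 3.94% of all genes at the unadjusted and 0% at the adjusted threshold. DESeq2 and limma-voom each called 1 pair there, Grin2b in DG (LFC 0.18, unadjusted p = 0.042 by DESeq2, and 0.19, unadjusted p = 0.0123 by limma). Grin3a in DG had 11.7, 14.5 and 19.1 CPM in Ts ChN and 9.48, 19.2 and 24.6 CPM in Ts ChP, with an LFC of 0.24 (unadjusted p = 0.267 by edgeR). The labels name no date or run, so diet and an unlabelled batch cannot be told apart.

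Whether the genotype difference itself depended on the diet was tested as an interaction. Of the 18 pairs 1 passed the unadjusted threshold, again Grin3a in DG, with 3.22% (CA1), 4.87% (CA3) and 3.97% (DG) of all genes passing. The interaction was -0.67 ± 0.32 on the log2 scale (unadjusted p = 0.0372, adjusted p = 1 by edgeR). It shares the 2N ChP libraries with the genotype and the diet contrast above, and those libraries held the highest Grin3a values of DG. With DESeq2 it was -0.68 (unadjusted p = 0.0511).

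**Figure D5:**
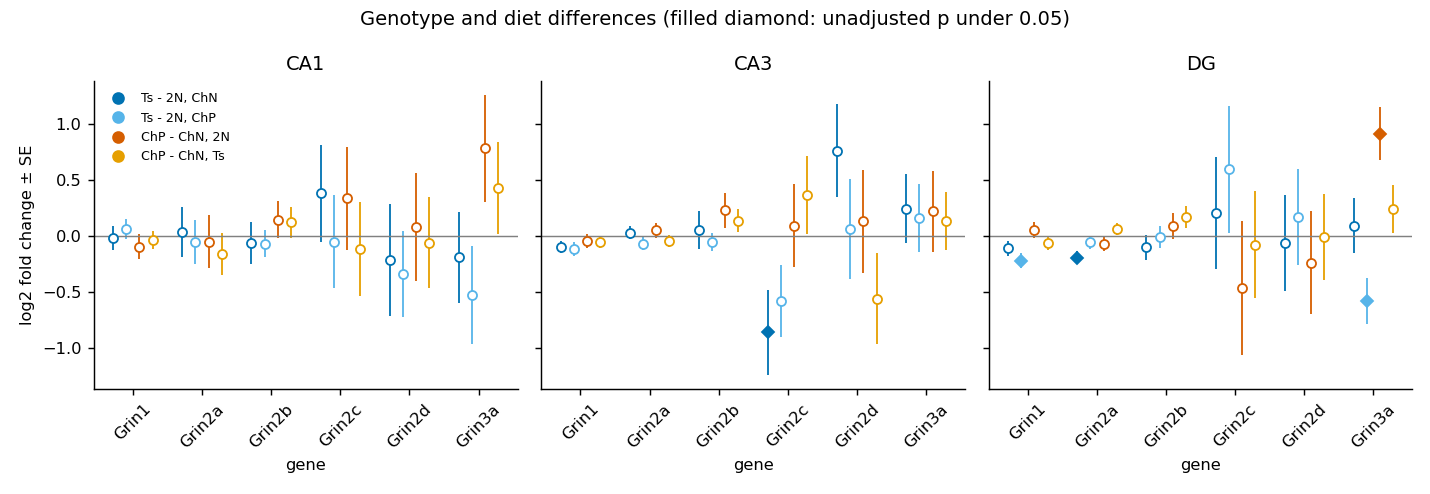
Log2 fold change with its SE for the 6 tested members in each population, for genotype on each diet (Ts - 2N) and for diet in each genotype (ChP - ChN), with filled diamonds for an unadjusted p under 0.05. The 5 diamonds are Grin2c in CA3 (-0.86) and, in DG, Grin2a (-0.19), Grin1 (-0.22) and Grin3a (-0.58 by genotype and 0.91 by diet).

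Whether the genotype difference depended on the population was tested with the mouse as a block. On the ChN diet 0 of 18 differences passed with edgeR at an unadjusted p under 0.05 (3.66% of all genes for CA1 against CA3, 4.9% for CA1 against DG and 4.33% for CA3 against DG). That of Grin1 differed by 0.10 between CA1 and CA3 (unadjusted p = 0.341). The nearest to the threshold was Grin2c for CA1 against CA3 at 1.27 (unadjusted p = 0.0514), which passed without the block (1.29, unadjusted p = 0.0442 by edgeR). On the ChP diet 3 of 18 passed, against 3.52%, 4.25% and 3.93% of all genes. The genotype LFC of Grin1 was higher in CA1 than in CA3 by 0.20 (unadjusted p = 0.049) and than in DG by 0.30 ± 0.098 (unadjusted p = 0.00313, adjusted p = 0.861 by edgeR). That of Grin2c was lower in CA3 than in DG, by -1.40 ± 0.66 (unadjusted p = 0.037 by edgeR).

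Without the CA1 libraries with CA2 markers 5 of the 18 differences passed on the ChP diet, where 4.38%, 4.86% and 5.51% of all genes did. The 3 above were then 0.25, 0.33 and -1.61. The other 2 were of Grin3a, whose genotype LFC was lower in CA1 than in CA3 by -1.04 ± 0.38 (unadjusted p = 0.0066, adjusted p = 0.866 by edgeR; -0.60 with all libraries) and higher in CA3 than in DG by 0.77 ± 0.33 (unadjusted p = 0.0197, adjusted p = 0.789 by edgeR; 0.79 with all libraries). The value of -1.04 includes the CA1 library of 2N ChP mouse 15-296 (64.4 CPM of Grin3a) and was not repeated without that mouse. On the ChN diet 2 of 18 passed without the libraries with CA2 markers. These were Grin2c for CA1 against CA3 (1.70, unadjusted p = 0.0255 by edgeR, 4.77% of all genes) and Grin2a for CA3 against DG (0.21, unadjusted p = 0.012 by edgeR, 6.48% of all genes).

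Genes whose products anchor, modify or follow the receptor were counted beside the members, in lists of 22 scaffolds, 18 kinases and phosphatases, 13 genes of co-agonist and glutamate supply, 12 extracellular and membrane partners and 11 downstream genes. On the ChN diet no gene of the 5 lists passed the unadjusted threshold by genotype in CA1, where 3.77% of all genes did. Without the CA1 libraries with CA2 markers 7.38% of all genes passed there, and the lists were not recounted in that fit. In CA3 and DG, the shares of all genes that passed were 9.2% and 8.5%, beside which the counts of the lists are to be read. In CA3, 2 kinases and phosphatases were higher and 1 lower in Ts, and in DG 3 were higher and 2 lower. The list's median LFC was 0.004 in CA3 and -0.04 in DG, beside 0 and 0.003 over all genes. Camk2g, a subunit of the calcium- and calmodulin-dependent kinase II, rose in CA3 (LFC 0.36, adjusted p = 0.0395 by edgeR), with Camk2b at 0.16. Src, which phosphorylates NMDA receptor subunits, was lower there (-0.20, unadjusted p = 0.0426). In DG Camk2n1, an inhibitor of the kinase II, fell (-0.35, adjusted p = 0.00893 by edgeR) and Ptpn5, the striatal-enriched phosphatase that promotes receptor internalisation, rose (0.78, adjusted p = 0.0149).

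Among the downstream genes, Tiam1, a Rac activator bound by the receptor and a gene of the triplicated segment, was higher in Ts in CA3 (0.56, unadjusted p = 0.00143) and DG (0.54, adjusted p = 1.21e-09 by edgeR). In CA3 2 downstream genes were higher, and in DG 2 were higher and 1 lower, with Rasgrf2 at 0.18 and Kalrn at -0.18. The medians of the list were 0.021 in CA3 and 0.006 in DG. Of the extracellular and membrane partners 1 was higher and 2 lower in CA3, where Neto1 was at 0.20, Ephb2 at -0.39 and Reln at -1.58, and 1 was higher in DG, Nlgn1 at 0.22 (list medians -0.002 and 0.109). Reln codes for the reelin secreted by interneurons, and summed inhibitory markers were also lower in Ts in CA3, as given with Grin2c. Their part in the Reln difference was not tested.

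For co-agonist and glutamate supply, Gcsh of the glycine cleavage system was higher in CA3 (0.80, unadjusted p = 0.0133) and DG (0.95, unadjusted p = 0.00406), while its partner Gldc was lower in DG (-0.92, unadjusted p = 0.0186 by edgeR). The list medians were 0.007 and 0.092. Scaffolds had 1 gene lower in CA3, Homer2 (-0.42), and 1 higher and 2 lower in DG, Homer2 (0.34), Dlgap1 (-0.15) and Cask (-0.24), with list medians of 0.01 and -0.031. In 2N ChN mice 11 kinases and phosphatases were higher and 6 lower in CA3 than in DG (median LFC 0.372), and 9 scaffolds higher and 4 lower (median 0.119), at an adjusted p under 0.05, which 43.3% of all genes passed, beside a median of -0.046 over all genes.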

How the data were processed

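Hippocampal sections were Nissl-stained, neurons were captured by laser, and RNA-seq libraries were made from each population of each mouse. For each library the authors deposited RSEM's expected counts per gene, without normalization, together with TPM and effective lengths, after alignment with STAR. The submitters' processing notes name FastQC 0.11.9, Picard 2.26.2 and Trimmomatic 0.39 and list the builds GRCm39 and mm10. Deposited TPM divide by an effective length that varied between libraries (7609 to 17844 for Grin2b). Expected counts of the 81 columns of the population matrices equalled those of the single files. Totals were 625249 to 4744036 (ChN) and 358355 to 2559173 (ChP), and each library is 1 mouse.

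Expected counts were rounded, genes over 0.1 CPM in at least 10 libraries were kept, and edgeR 4.0.16 (R 4.3.3; TMM, robust glmQLFit, glmQLFTest, two-sided, Benjamini-Hochberg adjustment over all genes) was fitted to the whole table. The study's covariates of RNA concentration and read composition were not used here. Populations were compared with the mouse as a block, since the labels give the same animal: 78 pairs of libraries that share a mouse had a median correlation of residuals over 9831 genes of 0.085, against -0.002 between mice. Log2 TPM ratios were compared by two-sided exact permutation, adjusted over 48 tests. Alternatives used DESeq2 1.42.0, limma 3.58.1 (voom), library totals, filterByExpr (minimum count 10), no filter, both diets in 1 fit, the Ts title of 1 CA3 library, no block, and leaving out single mice or libraries (in the comparisons the closing section names) or the CA1 libraries with CA2 markers (a mean log2(CPM + 1) above 4, chosen after seeing the data). The edgeR steps were tried on simulated counts with no effect of the mouse and changes placed only in genes of higher counts. That trial did not cover changes in genes with few counts or correlation within a mouse, and no result here rests on it. Members, gene and marker lists were chosen with earlier results of these data known. All members are named, with up to 3 genes per list and population of the ChN genotype comparison by smallest p under 0.05, and for each member over a mean of 1 CPM the 3 genes most correlated with it. Of list genes outside that rule, Camk2g and Ppp3ca in DG were counted only, and some list genes are counted but not reported here by name. Python 3.11.15, scipy 1.17.1 and matplotlib 3.10.9 were used.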

Additional observations from a re-analysis of the deposited data

Results flagged for a closer look

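In 9 of 96 groups of 4 to 10 libraries tested, 1 library stood apart from the others of its group by Dixon's ratio. Its chance rate of about 1 in 20 holds for normally distributed values. The low counts of Grin2c, Grin2d and Grin3a need not be so distributed, so the number flagged cannot be read as an excess. For Grin1, the CA1 library of Ts ChN mouse 17-157 had 952 CPM, with the others between 1110 and 1170. For Grin2a, the CA3 library of 2N ChP mouse 15-336 had 850 CPM (others 998 to 1040). For Grin2c, 3 libraries stood high: CA1 of 2N ChP mouse 15-334 at 9.12 CPM (others 1.5 to 4.68), CA1 of Ts ChN mouse 17-173 at 7.92 CPM (others 3.11 to 3.93) and CA3 of 2N ChP mouse 16-90 at 19.4 CPM (others 3.84 to 10.3). For Grin2d, the CA3 library of 2N ChP mouse 15-336 had 7.23 CPM (others 2.06 to 3.84) and that of Ts ChP mouse 15-199 had 0.0 CPM (others 2.84 to 4.74). For Grin3a, the CA1 library of 2N ChP mouse 15-296 had 64.4 CPM (others 8.58 to 24.6), the highest value of this gene in the series. The log2 ratio of Grin2b to Grin2a in CA1 of Ts ChN mouse 16-357, a library with CA2 markers, was 0.202 (others 0.438 to 0.512).

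The genotype effect differed between groups at an unadjusted p under 0.05 in 4 tests of the difference itself. These were Grin3a in DG by diet (-0.67), Grin1 on the ChP diet between CA1 and CA3 (0.2) and between CA1 and DG (0.3), and Grin2c on the ChP diet between CA3 and DG (-1.4). Their edgeR adjusted p were between 0.861 and 1.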

How the results depend on the processing

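Of 1272 single values recomputed under an alternative, 1213 kept their side of the threshold, 38 newly passed it and 21 no longer passed. For the ratios, alternatives that relabelled or left out libraries also counted tests holding none of those libraries. Such tests could not change and are among the 1213, so the 1213 is not a measure of stability. None that passed in either setting changed direction. The direction of values that passed in neither was not compared. The count of genotype calls on ChN (2) was 1 with filterByExpr, which left Grin2c out of the CA3 test. The count between populations in 2N ChN mice (9) was 7 with filterByExpr. That filter left out Grin2c, whose contrasts of CA3 with CA1 and with DG had passed. In the other alternatives this count was 9 to 11. For diet in 2N mice (1) it was 2 with limma-voom and 2 with no filter, and for diet in Ts mice (0) it was 1 with DESeq2, 1 with limma-voom and 2 with no filter. Genotype by diet (1) gave 0 with DESeq2. Genotype by population (0) gave 1 with limma-voom, library totals, filterByExpr or without the CA1 libraries of mice 17-21 and 17-154, and 2 with no filter or without the CA1 libraries with CA2 markers. Without the replicate block (the pairing by mouse) it gave 1, and the population count stayed 9. The ratio of Grin2b to Grin2a (1) gave 3 with expected counts, and that of GluN2 to Grin1 (8) gave 4 without the libraries with CA2 markers, where fewer mice raise the smallest possible p. Leaving out 1 library gave 1 to 3 genotype calls on ChN and 2 to 4 on ChP, and leaving out 1 2N ChN mouse gave 7 to 11 between populations. Only CA1 libraries were left out for diet in Ts mice (0 to 0) and only Ts ChN CA1 libraries for genotype by diet (1 to 1). For the ratios only the genotype tests on ChN were repeated (1 to 1 and 8 to 8). The Grin3a calls in DG of diet in 2N mice and of genotype by diet, and the ratio calls between populations, were not repeated in this way. Library totals in place of TMM moved the median of all genes by -0.176 (CA1 over DG) and -0.241 (CA3 over DG). Under them Grin2a in CA1 over DG was 0.45 (adjusted p = 0.069), and the Grin2a and Grin2b LFC of CA3 over DG were -0.54 and -0.32, both past the threshold. With the CA3 library of mouse 15-145 as Ts (its triplicated genes were in the range of 2N libraries), Grin1 in CA3 of ChN mice was -0.12 (unadjusted p = 0.0364 by edgeR). The causes were not tested. Median counts per library were 4, 5 and 15 for Grin2c, Grin2d and Grin3a, and the effect of depth was not tested.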

Other observations

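Over the 12 group means of log2 CPM and 14620 genes, the genes most like Grin1 were Plaat1 (Pearson r 0.994), Ryr3, the brain ryanodine receptor (0.993), and Ppp3r1, the regulatory subunit of calcineurin (0.992). Those most like Grin2a were Gria1, an AMPA receptor subunit (0.995), Ttc9 (0.992) and Sorl1 (0.989), and those most like Grin2b were Cyp2s1 (0.981), Fyb2 (0.980) and Pfn1, the actin-binding profilin (0.978). Likeness was lower for the rare members. Grin2c was most like Pik3c3 (0.951), Tmed5 (0.951) and Mag, a myelin protein (0.949). Grin2d was most like Rxra (0.890), Ldah (0.876) and Smad7 (0.861), and Grin3a most like Gm34220 (0.923), Meaf6 (0.921) and 0610009L18Rik (0.914). The 12 means fall into the 3 populations, so these values mostly describe a shared order of the populations.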
